A study of Caenorhabditis elegans with 2 samples.

Results

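Intergenic peaks of SEA-1 in front of protein-coding genes were examined in early Caenorhabditis elegans embryos. A peak was included when it belonged to the authors' conservative list, its summit lay outside every protein-coding gene, no more than 1000 bp upstream or 200 bp downstream of where a protein-coding transcript begins, and the summit was more than 100 bp from any tRNA, snoRNA or snRNA gene. Of the 1249 conservative peaks, 379 lay between genes in such a window, 56 of these were left out at small RNA genes, and 323 remained (25.9%, 95% Wilson interval 23.5 to 28.4). Intervals on peaks and genes cover counting error only, because peaks of the same libraries are not replicates. The rule used positions and membership of the conservative list, and no signal value of its own.

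SEA-1 belongs to the T-box family of transcription factors and is known from sex determination, where it is one of the signals from autosomes that act on xol-1 against signals from X. Neighbouring genes on opposite strands whose 5′ ends face each other share the sequence between them, and such divergent arrangements are common in compact genomes. Many worm transcripts are trans-spliced, so an annotated 5′ end can lie downstream of the site where transcription began. Whole embryos at the early embryonic stage (0 hour, collected by egg bleaching) came from strain OP129, which carries the transgene wgIs129, a sea-1 construct tagged with TY1, EGFP and 3xFLAG together with unc-119(+), in the mutant background unc-119(ed3). An anti-GFP antibody was used on sonicated chromatin from 2 biological replicates, the only group. The tagged protein comes from a transgene, and whole embryos mix cell types, so that binding in few cells and weak binding in many cannot be told apart. With 1 group there is no contrast between conditions and no p-value is given.

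A summit was called divergent when it lay in the promoter windows of coding genes on both strands, which held for 110 peaks, and one-sided for the other 213. The strongest 4 peaks of each kind that were found in both replicates' own lists, leaving out a chromosome whose sequence is not printed, are given on the forward strand of ce11 (RefSeq WBcel235) as stretches around the summit that hold no coding gene. They show what the strongest promoter sequences have in common and where they differ.

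The 4 divergent stretches are the following. Capitals mark letters of motifs that were searched, given with their shares further on, or of GGCGGAGT and GTGTGCG, which are 2 of 7 words counted after these sequences had been read and were kept with the counts in view. TGGCNNAGT and GGCGGAGT can overlap.
atx-2 and ecps-1 (chrIII:10461261-10461381): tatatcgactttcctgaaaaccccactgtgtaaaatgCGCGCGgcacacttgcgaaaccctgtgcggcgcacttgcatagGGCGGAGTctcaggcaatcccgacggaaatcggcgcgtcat
ears-2 and uncp-18 (chrIV:390469-390553): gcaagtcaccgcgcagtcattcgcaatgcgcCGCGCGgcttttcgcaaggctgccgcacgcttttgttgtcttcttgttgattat
idhg-1 and mlcd-1 (chrIII:4568704-4568796): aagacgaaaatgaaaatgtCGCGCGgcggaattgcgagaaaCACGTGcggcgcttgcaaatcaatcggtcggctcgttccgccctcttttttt
tasp-1 and K01G5.10 (chrIII:10759179-10759299): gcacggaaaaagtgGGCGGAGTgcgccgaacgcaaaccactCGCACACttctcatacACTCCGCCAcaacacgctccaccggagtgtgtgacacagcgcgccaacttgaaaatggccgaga

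The 4 one-sided stretches follow, with capitals as above.
K12H4.5 (chrIII:8043901-8044021): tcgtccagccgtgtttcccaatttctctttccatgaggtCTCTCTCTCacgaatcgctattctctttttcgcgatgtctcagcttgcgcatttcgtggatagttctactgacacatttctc
rpl-3 (chrIII:3867495-3867615): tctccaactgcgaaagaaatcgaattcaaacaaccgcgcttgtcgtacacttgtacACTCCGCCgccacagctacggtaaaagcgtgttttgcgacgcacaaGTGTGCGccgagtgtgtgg
T13C5.6 (chrX:6207795-6207915): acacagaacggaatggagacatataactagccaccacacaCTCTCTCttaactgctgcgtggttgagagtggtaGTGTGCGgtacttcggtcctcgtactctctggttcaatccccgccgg
cbp-1 (chrIII:9765537-9765657): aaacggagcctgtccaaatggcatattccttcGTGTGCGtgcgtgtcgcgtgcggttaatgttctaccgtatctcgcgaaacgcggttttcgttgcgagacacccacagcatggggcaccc
Among these 8 stretches, CGCGCG occurred in 3 of the divergent ones and in none of the one-sided ones, and a run holding CTCTCTC occurred in K12H4.5 and T13C5.6. This contrast did not hold over all peaks. Within 100 bp of the summit CGCGCG was at 15.5% of divergent peaks (9.88 to 23.4) and 11.3% of one-sided peaks (7.69 to 16.2), with overlapping intervals. The stretch at T13C5.6 adjoins the noncoding RNA gene C14F11.14.

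Each peak has a signal value, the authors' own measure of its strength, for which no normalization is stated. The median signal value of the 323 peaks was 101 (interquartile range 83.7 to 127, range 2.96 to 597), against 93.2 for the other 926 conservative peaks. The strongest peak lay 526 bp upstream of K12H4.5, a gene annotated as an uncharacterized protein, with a signal value of 597 in the conservative list, 290 in replicate 1 and 308 in replicate 2. The peak 68 bp from atx-2, whose product is the worm ataxin-2, and 770 bp from ecps-1, which encodes a relative of the proteasome-associated protein Ecm29, had 460, with 252 and 228 in the replicates. Upstream of rpl-3, a gene for a protein of the large ribosomal subunit, the value was 384, with 179 and 209. All 3 peaks stood high in both replicates, at ranks 18, 24 and 51 of the 71678 ranked peaks of replicate 1 and at ranks 16, 32 and 39 of the 68844 of replicate 2.

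The summit between ears-2, which encodes a mitochondrial glutamyl-tRNA synthetase, and uncp-18, which encodes a syntaxin-binding protein, lay in an intergenic stretch of only 91 bp, 25 bp from the first gene and 67 bp from the second (380; 198 and 184 in the replicates). The next divergent peak lay 33 bp from idhg-1, for a mitochondrial isocitrate dehydrogenase subunit, and 634 bp from mlcd-1, for malonyl-CoA decarboxylase (371; 187 and 178). Upstream of T13C5.6 on the X chromosome the value was 358, with 168 and 182. The peak at the protease gene tasp-1 and K01G5.10 had 297 (130 and 158), that at the histone genes his-67 and his-68 and the Argonaute gene alg-5 had 295 (157 and 132), and that 912 bp upstream of cbp-1, the worm homolog of the acetyltransferases CBP and p300, had 289 (136 and 158). In each of these 9 the replicate values lay close together beside the gap to the median peak, which had 51.8 in replicate 1 and 49.7 in replicate 2.

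The following 11 peaks in rank order that were also found in both own lists had signal values from 213 to 268. Divergent ones lay at rpl-15 and K11H12.8, pcrg-1 and E04F6.6, C16C10.4 and rnf-121, spe-48 and Y51F10.11, B0495.9 and sre-1, nmad-1 and hach-1, and krr-1 and gei-6. One-sided ones lay at C46F11.4, at usp-4, which encodes a ubiquitin hydrolase, at ZK816.3 and at eel-1. The summit at pcrg-1 and E04F6.6 lay within 100 bp of mrpr-1, the gene for the RNA of RNase MRP, and that at ZK816.3 within 100 bp of the noncoding genes ZK816.8 and ZK816.9.

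Across the 307 peaks that overlapped a ranked peak in both replicates, the log10 signal values of the replicates had Pearson's r = 0.74 and Spearman's rho = 0.51, a description of points that share the same libraries. In 303 of them the ratio of the replicates was within 2-fold of the median ratio. Divergent peaks had r = 0.82 (n = 106) and one-sided peaks r = 0.69 (n = 201). The conservative list holds peaks that the replicates ranked alike, so their likeness is in part a property of the list. The largest contrasts were at unc-85, the gene of a histone chaperone (69.9 in replicate 1 and 31.4 in replicate 2), at gly-13, for a glycosyltransferase (37.4 and 77.0), and at the succinate-CoA ligase gene sucl-1 (33.6 and 66.9).

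**Figure D1:**
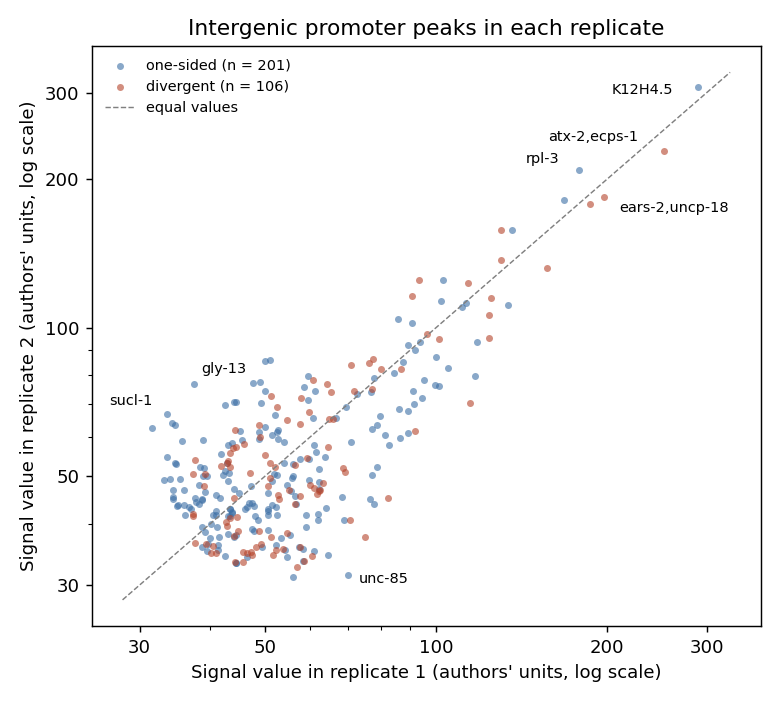
Signal value of each promoter peak in replicate 1 (x axis) and replicate 2 (y axis), both on log scales in the authors' units, for 201 one-sided and 106 divergent peaks that both replicates ranked; each point is a peak and the dashed line marks equal values. Strong peaks such as K12H4.5 (290 and 308) lie near the line, and most peaks form a cloud between 30 and 100 in which the replicates' order is loose.

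Only 83 of the 323 peaks (25.7%, 21.2 to 30.7) were found in both replicates' own thresholded lists, beside 26.3% of all conservative peaks. At small RNA genes 178 of 304 conservative peaks were (58.6%, 52.9 to 64.0), and of the conservative peaks elsewhere 67 of 622 (10.8%, 8.57 to 13.5). Thus promoter peaks lay between these groups, and their intervals do not overlap. Another 41 were in replicate 1's list alone, 43 in replicate 2's alone, and 156 (48.3%) in neither. When the 323 peaks were ordered by signal value and split into 4 groups, 70 of the strongest 81 were in both own lists, then 12 of 81, 1 of 81 and 0 of 80, which allows a share of up to 4.58% by the Wilson interval. A total of 16 peaks lacked a ranked peak in at least 1 replicate, and 10 of the 16 overlapped a stronger conservative peak. Signal values under 20 occurred at 8 peaks, 7 of which overlapped a stronger one.

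Divergent promoters held peaks more often than the space they offer. They made up 34.1% of the peaks (110 of 323, 29.1 to 39.4), but 10.6% of the genome positions that meet the rule and 11.5% of the 11393 ranked peaks outside every thresholded list that meet it (1313 peaks, 11.0 to 12.1). Per megabase of such positions there were 85.0 divergent peaks (exact Poisson 95% interval 69.9 to 102) and 19.4 one-sided ones (16.9 to 22.2). Ranked peaks outside every thresholded list were spread almost evenly, at 1015 and 919 per megabase. Peaks of replicate 1's own list had densities of 43.3 and 7.75 per megabase, and those of replicate 2's own list 44.1 and 8.75. Of all 104066 ranked peaks 1.20% are in the conservative list, and of the 11820 that meet the rule 2.73%. When the promoter peaks were counted together with the 11393 ranked peaks outside every thresholded list alone, they made up 7.73% in divergent and 2.07% in one-sided promoters.

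Among peaks of the conservative list, signal values were alike in both arrangements. Both classes had to pass the same list, and the part of the list in this likeness was not tested. Divergent peaks had a median signal value of 104 and one-sided peaks of 97.9. In replicate 1 the medians were 54.7 and 50.5, and in replicate 2 50.7 and 49.1, well inside the interquartile ranges. Of the divergent peaks 34 were in both own lists (30.9%, 23.0 to 40.1), and of the one-sided peaks 49 (23.0%, 17.9 to 29.1), with overlapping intervals. Replicate 1's own list held 52 of 110 and 72 of 213, and replicate 2's own list 44 of 110 and 82 of 213. The arrangements thus differed over 4-fold in density, while their signal distributions overlapped.

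Base composition moved with membership, and was examined in the 201 bp around the summit. The median GC content was 45.3% in the 323 peaks, 44.3% in divergent and 45.8% in one-sided ones, 36.8% in ranked peaks outside every thresholded list that meet the rule, 47.3% in other conservative peaks and 32.8% in windows upstream of all coding genes. Within bands of GC content the arrangements still differed. Of promoter peaks and ranked peaks outside every thresholded list together, promoter peaks made up 1.59% under 35% GC in divergent and 0.368% in one-sided promoters. From 35 to 40% GC these shares were 7.04% (4.95 to 9.93) and 1.37% (0.998 to 1.89), and from 40 to 45% 7.22% (4.67 to 11.0) and 2.23% (1.67 to 2.97). From 45 to 50% they were 27.4% (20.1 to 36.1) and 4.95% (3.74 to 6.52), and from 50% upwards 31.8% (21.8 to 43.8) and 12.5% (9.96 to 15.5). In both arrangements the share rose with GC content, and the part of GC content in the densities was not tested further.

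The one-sided class holds unlike neighbourhoods. In 115 of the 213 one-sided peaks the nearest coding genes on both sides pointed the same way, with a median intergenic length of 906 bp. In 97 they pointed away from the peak on either side but the second 5′ end lay beyond the window, with a median intergenic length of 3762 bp. The remaining one-sided peak, counted for his-15, lay between genes that both pointed towards it. The median signal value was 95.8 in the first kind and 101 in the second, and 25 of 115 and 24 of 97 were in both own lists. In divergent promoters the facing 5′ ends were a median of 587 bp apart (interquartile range 391 to 814), against 775 bp for ranked peaks outside every thresholded list in divergent promoters. In 56 of the 110 (50.9%, 41.7 to 60.1) the summit lay in the middle 1 of 3 equal stretches between those ends. No such share was computed for eligible positions or ranked peaks, so a preference for the middle is not shown.

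Distances to the 5′ end were read upstream only, because the rule left out summits inside coding genes, on or just past a 5′ end. Within 100 bp of a 5′ end lay 26.4% of divergent peaks, beside 26.2% of eligible positions. Of one-sided peaks 7.51% lay there, beside 13.4% of eligible positions. The median distance to the nearest 5′ end was 226 bp for all peaks, 178 bp for divergent and 320 bp for one-sided peaks. The positions that meet the rule have medians of 213 bp and 426 bp, so part of the gap between the classes lies in the shape of the windows. Per megabase, divergent peaks were densest from 101 to 200 bp (147, 106 to 200). There were 85.5 (57.3 to 123) within the first 100 bp, 107 (67.6 to 160) from 201 to 300 bp and 51.2 from 301 to 400 bp. The intervals of both bins beside the densest overlap its own, so the place of the maximum is not resolved. One-sided peaks were also densest from 101 to 200 bp (41.3, 31.1 to 53.8), with 10.9 (6.21 to 17.7) within the first 100 bp and between 10.8 and 18.4 in each bin past 400 bp. From 201 to 300 bp they had 26.7 (18.4 to 37.5), an interval that overlaps that of the densest bin. Ranked peaks outside every thresholded list showed no such rise, with 1047 and 1145 per megabase in the first bins of divergent promoters and 967 and 974 in those of one-sided promoters. A summit was placed at the exact centre of a peak 320 bp wide in 306 of the 323 cases, which limits how finely these distances can be read.

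**Figure D2:**
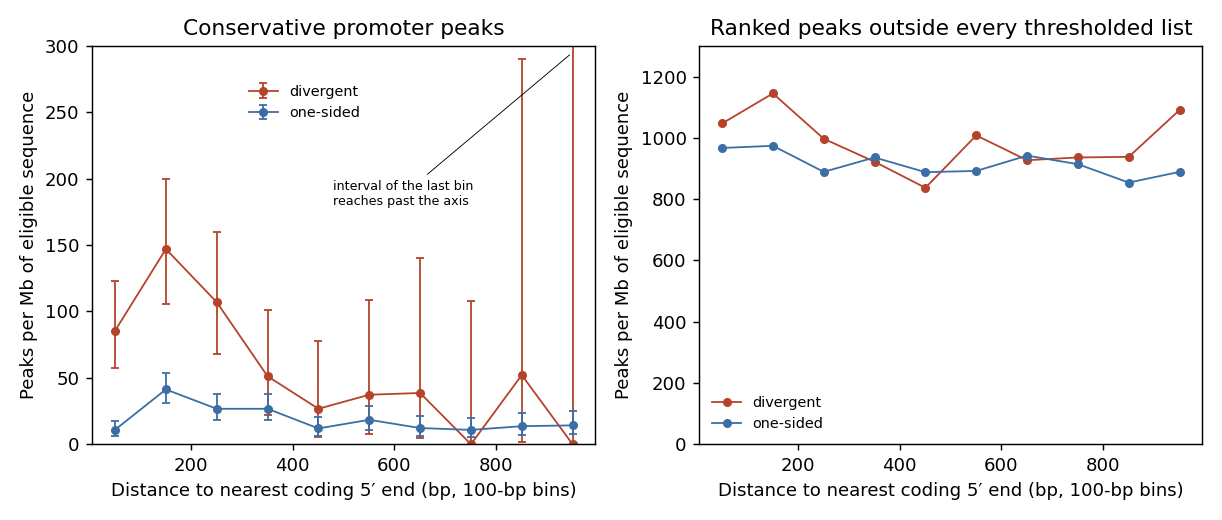
Peaks per megabase of eligible sequence (y axis) by distance of the summit from the nearest coding 5′ end (x axis, 100-bp bins) for conservative peaks (left, with exact Poisson 95% intervals) and for ranked peaks outside every thresholded list (right), with divergent and one-sided promoters as separate lines. Conservative peaks are densest from 101 to 200 bp in both arrangements (147 and 41.3 per megabase), and the ranked peaks on the right are nearly flat. In both arrangements the interval of the densest bin overlaps that of the bin from 201 to 300 bp.

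The closest summits lay 2 bp from the 5′ end of the nuclear receptor gene nhr-47, which faces the chaperone gene dnj-19 (signal value 71.4), and 3 bp from the linker histone gene hil-3 (151). At the far end of the window the last peaks included lay upstream of otub-2 (999 bp, 111), ulp-4 (996 bp, 84.4) and fbxb-58 (990 bp, 90.1). Those just past it lay upstream of dhs-8 (1002 bp, 234), lam-1 (1004 bp, 83.2) and ain-1 (1005 bp, 111).

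The peaks reached 439 of 19973 coding genes, 2.20% (2.00 to 2.41), or 2.33% of the 18817 genes that had any position meeting the rule and 4.65% of the 9433 genes with a ranked peak that meets it. A single gene lay in the window of 202 peaks, a pair in that of 113, and 3 or more in that of 8. A gene was counted whenever a summit lay in its window, even where another coding gene began in between. This held, for example, for lsm-3 (929 bp away), rab-7 (785 bp), alg-5 (858 bp), lig-4 (575 bp), mrps-21 (993 bp), exos-9 (926 bp) and sas-4 (703 bp). Of the 439 genes 223 lay at divergent peaks. Genes were sorted into 33 lists by symbol, and 149 of the 439 were in at least 1 list. Earlier results on these files were known when the lists were drawn up, so the shares below describe the peaks and support no independent claim. Paired genes of a list can share a peak, and the number of peaks is given for histone and vesicle traffic genes.

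Genes for histones, the proteins that package DNA, carried peaks at 15 of 83 (18.1%, 11.3 to 27.7), through 9 peaks. Beside his-67 and his-68 (H4 and H2A) and hil-3 (H1) they included his-15 (H2B; 140, with replicate values of 49.9 and 85.4) and the divergent pair his-5 and his-6 (H4 and H3; 130, with 64.8 and 65.3). The his-15 summit lay 654 bp upstream, in a stretch of 95 bp between the 3′ ends of other genes. Of the 15 genes 13 lay at divergent peaks. Replicate 1's own list reached 11 histone genes and replicate 2's 7. Peaks in both own lists belonged to 5 of the 15 genes. The peak at his-63 and his-64 had no ranked peak in replicate 1. The peaks at his-15, his-5 and his-6, his-3 and his-4, his-7 and his-8, and his-63 and his-64 held 50-base words found elsewhere in the genome, so reads may be shared among histone copies there. The peaks at his-67 and his-68 and at his-31 and his-32 held none.

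Genes for cytosolic ribosomal proteins followed with 12 of 82 (14.6%, 8.57 to 23.9), each at a peak of its own, and 7 of the 12 were in both own lists. After rpl-3 came rpl-15 (268, with 130 and 137 in the replicates), rpl-20 (189, with 96.3 and 97.2) and rps-19 (167, with 77.4 and 86.2), the last 3 all at divergent peaks. Replicate 1's own list reached 12.2% of them and replicate 2's 13.4%, where all coding genes had 0.976% and 1.07%. Mitochondrial ribosomal proteins had 5 of 69 (7.25%, 3.13 to 15.9), namely mrps-21 (104), mrpl-12 (95.5), mrpl-45 (90.1), mrpl-28 (89.7) and mrpl-15 (78.1), none of them in both own lists. In the own lists they had 0 of 69 in replicate 1 and 2 of 69 in replicate 2.

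Translation factors had 6 of 49 (12.2%, 5.73 to 24.2). They were led by iff-2, which encodes initiation factor 5A (120, with 54.7 and 65.0), the release factor gene erfa-3 (119, with 82.3 and 45.1), eif-3.C (114) and the elongation factor gene eef-2 (105, 7 bp upstream). Only iff-2 was in both own lists, and the own lists reached 3 of 49 in replicate 1 and 2 of 49 in replicate 2. Among aminoacyl-tRNA synthetases ears-2 was the only 1 of 32 (3.12%, 0.554 to 15.7), an interval that includes the 2.20% of all coding genes.

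Chaperones, which help other proteins fold, had 9 of 69 (13.0%, 7.02 to 23.0). They were led by the hsp70 gene hsp-1 (166, with 77.6 and 79.1), dnj-29 (162, with 91.9 and 61.7), the mitochondrial chaperonin gene hsp-60 (159, with 76.1 and 84.8) and dnj-28 (128, with 64.1 and 76.8), each in both own lists. Facing hsp-60 across the same peak lies Y22D7AL.10, annotated as the 10 kDa mitochondrial heat shock protein, the partner of HSP60 in protein folding. A divergent peak between F44E5.4 and F44E5.5, both annotated as heat shock protein 70, had 192, with 115 and 70.2 in the replicates. Both of these pairs were picked out with their values already in view.

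Nuclear pore and transport genes had 6 of 46 (13.0%, 6.12 to 25.7). The nucleoporin genes npp-18 (191) and npp-8 (167) and the importin alpha gene ima-1 (132) were in both own lists, and npp-12 (110) was not. Chromatin regulators had 14 of 112 (12.5%, 7.59 to 19.9), led by cbp-1, by hmg-1.1, for an HMG box protein (139, with 82.7 and 57.7), by the bromodomain gene bet-2 (130, with 58.5 and 75.7) and by set-21 (128, with 51.2 and 72.7). Peaks in both own lists belonged to 2 of these 14 genes.

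Vesicle traffic genes had 14 of 146 (9.59%, 5.80 to 15.5), led by the sorting nexin gene snx-13 (142), vps-39 (136), the translocon gene trap-2 (117) and rab-7 (117). The number of peaks was 15, as some of these genes share peaks and some have more than 1. Splicing genes had 6 of 69 (8.70%, 4.05 to 17.7), led by prp-19 (152), snr-1, which encodes the core protein Sm D3 and faces snx-13 across the same peak (142), lsm-3 (136) and mog-5 (99.7). Genes for mRNA processing and decay had 5 of 60 (8.33%, 3.61 to 18.1), namely cpf-2 (146), smg-2 (113), ntl-2 (103), ntl-11 (78.2) and exos-9 (72.7). In replicate 1's and replicate 2's own lists, vesicle traffic genes had 6 of 146 in each, splicing genes 4 and 3 of 69, and mRNA processing genes 2 and 1 of 60. With a window of 500 bp splicing genes had 3 and mRNA processing genes 2, and in the second thresholded list mRNA processing genes had 3.

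Among enzymes of glycolysis and the citric acid cycle 5 of 45 had a peak (11.1%, 4.84 to 23.5), and all 5 belong to the citric acid cycle or its isoenzymes: idhg-1 (371), suca-1 (138), sucl-1 (99.7), dlst-1 (95.8) and idh-2 (75.4). Respiratory chain genes had 4 of 71 (5.63%, 2.21 to 13.6), which were cox-5B (164, 9 bp upstream), ndua-2 (162, at the peak of dnj-29), nduf-11 (91.8) and nduf-2.2 (77.7). Proteasome and ubiquitin genes had 5 of 107 (4.67%, 2.01 to 10.5), namely usp-4 (221), the AAA ATPase gene cdc-48.1 (187), ubc-6 (155), ubc-9 (103) and skr-21 (82.6).

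Genes for cell division had 8 of 149 (5.37%, 2.75 to 10.2). They were led by the centriole assembly genes sas-5 (166, with 86.7 and 82.4) and sas-4 (119, with 52.4 and 61.5), the tubulin gene tba-2 (109) and lin-35, the retinoblastoma homolog (108, with 74.8 and 37.5). The summit counted for sas-4 lay 703 bp from it and 31 bp from F10E9.11, which lies in between. Each replicate's own list reached only 2 of the 149 (1.34%), where all coding genes had 0.976% and 1.07%. RNA polymerase and general transcription genes had 5 of 96 (5.21%, 2.24 to 11.6), namely mdt-9 (136, at the peak of lsm-3), rpac-19 (102), rpb-11 (80.5), ttb-1 (78.1) and mdt-19 (72.7). The RefSeq product of mdt-9 has another name, MSS4, and that of Y62E10A.23 at the same peak is Mediator complex subunit 9. In the second thresholded list this group had 2 of 96 (2.08%, beside 2.13% of all coding genes). The own lists reached 1 of 96 in replicate 1 and 2 of 96 in replicate 2. DNA replication and repair genes had 3 of 52 (5.77%), lig-4 (109), rpa-2 (101) and brc-1 (93.5), and small RNA pathway genes 3 of 61 (4.92%), alg-5, nrde-2 (149) and ekl-4 (122). Among 81 maternal polarity genes 3 had a peak (3.70%). These were nhl-2 (75.6) and the RNA-binding protein genes spn-4 (102), at the peak of spe-39, and mex-1 (117), at the peak of rab-7. The intervals of the last 3 lists include 2.20%.

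Zygotic lineage genes had 3 of 85 (3.53%, 1.21 to 9.87), egl-27 (119), the homeobox gene ceh-13 (91.9) and tbx-2 (82.0). None of the 3 genes was in both own lists. Of the 63 ceh genes 1 had a peak, ceh-13 (1.59%, 0.281 to 8.46). Of the 22 T-box genes 1 had a peak, tbx-2 (4.55%, 0.807 to 21.8). The intervals of these lists include the 2.20% of all coding genes. Sex determination and dosage compensation genes had 3 of 45 (6.67%, 2.29 to 17.9), namely the splicing helicase genes mog-5 and mog-4 (89.2) and the histone methyltransferase gene set-4 (78.4), which had no ranked peak in replicate 1. None of these was in both own lists.

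The other sex-determination genes that were looked up and matched by symbol had no conservative peak in the promoter window. The highest ranked peak in the window had a signal value of 24.3 at xol-1, in the gene, and of 72.3 at ceh-39, in intergenic sequence 202 bp upstream, with 53.0 in replicate 1 and 26.8 in replicate 2. The values were 60.5 at sex-1, 57.9 at fox-1, 66.2 at sea-2 and 45.5 at her-1, all in a coding gene, and 48.7 at sdc-2, in intergenic sequence. Summits in a coding gene could not be promoter peaks at any signal value. No ranked peak lay in the window of sea-1 itself, and sex-2 was not matched by symbol. All of these values are below the median of 101 of the promoter peaks. This says little, because promoter peaks were taken from the conservative list and these peaks are not in it.

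Lists of tissue and environmental genes were at or below the share of all coding genes. Chemoreceptors, the receptors of sensory neurons, had 4 of 1365 (0.293%, 0.114 to 0.751), namely sre-1 (225), sri-5 (129), str-12 (78.1) and srt-41 (75.8). Of these, sre-1, sri-5 and str-12 lay at divergent peaks that also belong to another gene, and the summit near sre-1 lay 944 bp from it and 50 bp from B0495.9. Among chemoreceptor genes with a ranked peak that meets the rule the share was 0.885%, against 4.65% for all genes. C-type lectins had 1 of 240 (0.417%), clec-264 (28.6, with no ranked peak in replicate 1), collagens 1 of 178 (0.562%), col-71 (99.8), and neuronal genes 2 of 199 (1.01%), syd-2 (148) and mec-6 (84.9).

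No peak lay at the 185 detoxification genes (0%, upper limit 2.03%), the 92 intestine genes (upper limit 4.01%) or the 54 body wall muscle genes (upper limit 6.64%). Nuclear hormone receptors had 4 of 269 (1.49%), nhr-141 (173), nhr-48 (91.6), nhr-1 (73.2) and nhr-47 (71.4). F-box genes had 4 of 322 (1.24%), led by fbxb-85 (113) and fbxb-58 (90.1), with fbxc-44 (89.9) and, at the peak of str-12, fbxa-153 (78.1). Of germline structure and sperm genes 2 of 118 had a peak (1.69%), spe-48 (229) and spe-39 (102). Apart from chemoreceptors and detoxification genes, the intervals of the lists in these paragraphs include 2.20%, and in the second thresholded list 1 of 185 detoxification genes had a peak (0.541%, beside 2.13% of all coding genes).

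**Figure D3:**
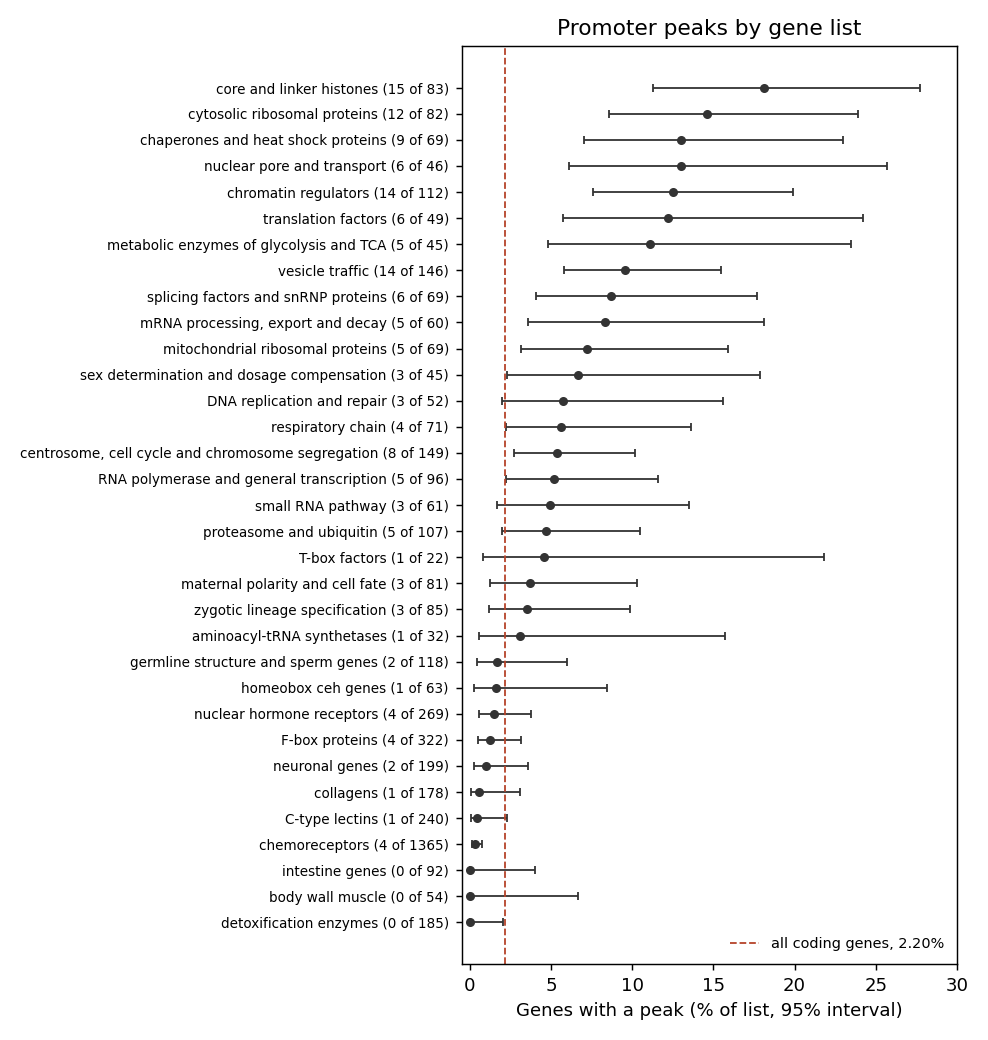
Share of genes in each of 33 lists with an intergenic promoter peak (x axis, percent of the list), with 95% Wilson intervals; the y axis gives the list with the number of genes with a peak of the number in the list, and the dashed line marks the 2.20% of all coding genes. Histone (18.1%) and ribosomal protein (14.6%) genes head the order and chemoreceptors (0.293%) lie below the line.

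The peaks were spread unevenly over the chromosomes. Chromosome III held 72 peaks, 51.5 per megabase of eligible sequence (40.3 to 64.9), and chromosome V 42 peaks, 13.3 per megabase (9.59 to 18.0). The X chromosome held 60 (18.6%, 14.7 to 23.2), 28.0 per megabase (21.4 to 36.0), against 17.5% of eligible positions, 17.5% of ranked peaks outside every thresholded list that meet the rule and 13.7% of coding genes. Divergent peaks exceeded one-sided peaks per megabase on each chromosome, from 43.9 against 9.31 on V to 161 against 35.4 on III, although on X and II the intervals of the classes came close or overlapped. On X only 6 of 60 peaks were divergent, where 3.94% of eligible positions are.

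On X the densities were 71.1 (26.1 to 155) and 26.2 (19.7 to 34.2) per megabase, and on II 67.3 (37.7 to 111) against one-sided peaks of 18.2 to 33.4 by their interval. The one-sided intervals of X, II and III (25.6 to 47.6) overlap. In the 4 groups by signal value, from strongest to weakest, 9 of 81, 18 of 81, 15 of 81 and 18 of 80 peaks were on X. The intervals of the strongest group (5.96 to 19.8%) and the weakest (14.7 to 32.8%) overlap. The median signal value was 97.2 on X and between 90.7 on II and 108 on I.

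**Figure D4:**
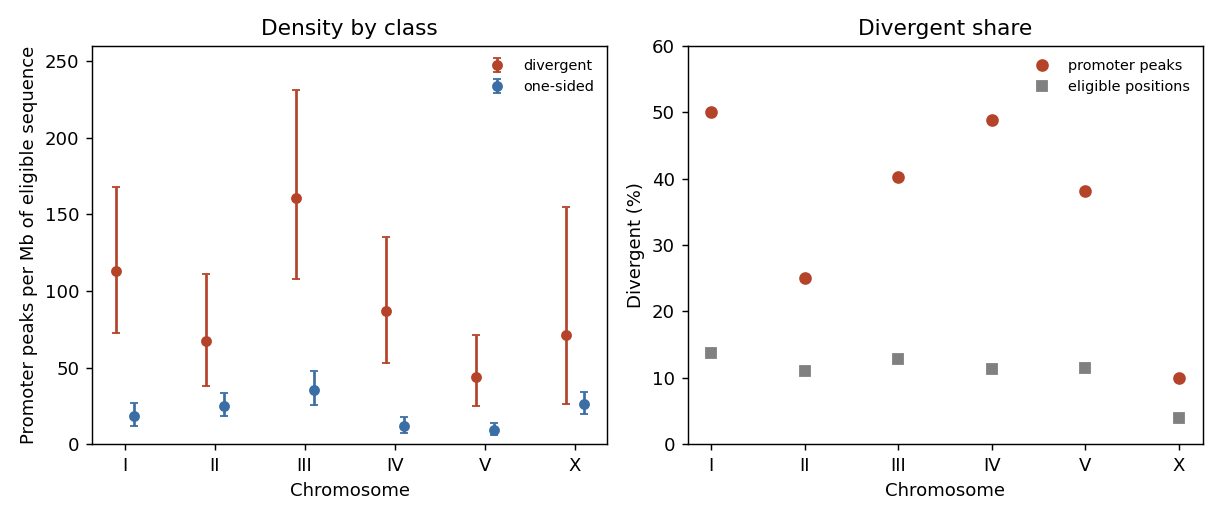
Left, promoter peaks per megabase of eligible sequence (y axis) by chromosome (x axis) for divergent and one-sided promoters, with exact Poisson 95% intervals; right, the divergent share in percent of peaks (circles) and of eligible positions (squares). Chromosome III is highest in both classes (161 and 35.4 per megabase), and X has few divergent positions (3.94%) and few divergent peaks (6 of 60).

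Motifs were searched in both orientations in the 201 bp around the summit, and each match is a run of letters, not a site shown to be bound. The T-box core GGTGTGA occurred at 6 of 323 peaks (1.86%, 0.854 to 3.99), against 1.71% of ranked peaks outside every thresholded list that meet the rule, 1.51% of other conservative peaks and 1.60% of windows of the same length upstream of all coding genes. It occurred at 0 of the 83 peaks in both own lists (upper limit 4.42%). The tRNA B-box core GGTTCGA was at 1.55% of the peaks and at 18.9% of other conservative peaks, which include those at tRNA genes. The A-box letters TGGCNNAGT were at 4.33% (2.60 to 7.14), against 2.40%, 7.88% and 1.34% in the same 3 sets.

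Letters rich in G and C, or in purine repeats, were more frequent than in ranked peaks outside every thresholded list. CGCGCG occurred at 12.7% of the peaks (9.50 to 16.8), 19.3% of those in both own lists and 3.14% of the ranked peaks. GAGAGAG occurred at 14.9% (11.4 to 19.2), with 17.8% of one-sided and 9.09% of divergent peaks, and at 5.57% of the ranked peaks, 11.6% of other conservative peaks and 5.15% of all coding promoters. CTGCGTC occurred at 9.29% (6.58 to 12.9) against 3.91%, and TTTNGCGC, of the E2F type, at 7.43% (5.04 to 10.8) against 4.46%. TATAAA went the other way, at 14.9% (11.4 to 19.2) against 20.6%, as did TGATAA, of the GATA type, at 8.36% (5.81 to 11.9) against 1826 of 11393, and TTTTTTTT at 12.1% (8.96 to 16.1) against 23.2%. In other conservative peaks TATAAA was at 11.7%, TGATAA at 9.07% and TTTTTTTT at 8.64%, so low shares were not particular to promoter peaks. The E box CACGTG was at 2.79%, against 3.92% of the ranked peaks. CGCGCG can overlap TTTNGCGC in sequence, and these shares are not independent.

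As GC content differed between the sets, the shares were also set side by side within GC bands. In windows of 50% GC or more, GAGAGAG was at 31.1% of 90 peaks (22.5 to 41.3) and at 17.5% of 530 ranked peaks (14.5 to 21.0). From 45 to 50% GC it was at 11.4% and 11.8%, and from 40 to 45% at 10.9% and 8.79%, with overlapping intervals in both bands. CTGCGTC was at 16.7% and 10.9% from 50% GC upwards, with overlapping intervals, and at 8.86% and 8.60% from 45 to 50%. From 40 to 45% GC it was at 2 of 64 promoter peaks (3.12%, 0.861 to 10.7) against 6.44% (5.50 to 7.54), with overlapping intervals. CGCGCG kept its difference from 35 to 40% GC, at 9.09% (4.23 to 18.4) and 2.53% (2.03 to 3.16), and from 40 to 45%, at 15.6% (8.71 to 26.4) and 4.28% (3.51 to 5.21). In the higher bands its intervals overlapped. TTTNGCGC was more frequent in promoter peaks under 35% GC, at 3 of 24 (4.34 to 31.0%) against 3.44% (2.96 to 4.01), and from 40 to 45%, at 14.1% (7.58 to 24.6) against 4.51% (3.72 to 5.45). From 35 to 40% it was at 6.06% and 4.84%, from 45 to 50% at 5.06% and 5.97%, and from 50% upwards at 4.44% and 8.11%, with overlapping intervals in these 3 bands. The 48 peaks with GAGAGAG had a median distance of 330 bp from the 5′ end, against 213 bp for the other 275, and a median signal value of 96.6 against 101.

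Other features overlapped the peaks as well. A noncoding gene of another kind lay within 100 bp of 44 summits (13.6%, 10.3 to 17.8), against 5.21% (4.82 to 5.64) of ranked peaks outside every thresholded list that meet the rule. The share was 16.4% in divergent and 12.2% in one-sided promoters. In 46 peaks the window held a 50-base word that occurs elsewhere in the genome, in 11 of 110 divergent and 35 of 213 one-sided ones, so that short reads may not be placed uniquely there. Of the peaks named above, beside those at histone genes, these were the peaks at ZK816.3, eel-1, npp-18, nhr-141, ubc-6, nrde-2, vps-39, unc-85, rpa-2, mog-4 and mec-6. Whether such words raised any signal value was not tested. A longer worm symbol, given to genes that have been studied or have named relatives, was borne by 71.5% of the 439 genes and by 55.2% of all eligible genes.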

How the data were processed

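Peaks from 2 replicates of 1 group, with replicate numbers from the labels, were analysed. Peak lists in narrowPeak format on ce11 were deposited, per the labels: a conservative list, a second thresholded list, ranked lists and lists of each replicate. The signal value that the authors deposited for each peak has no stated normalization and served only to describe and rank peaks. The deposited score of the ranked list is the −log10 irreproducible discovery rate (IDR), and all conservative peaks reached 2, which is an IDR of 0.01. Which aligner and peak caller were run is not given in the sources used here, nor is the depth. The depth is thus unknown. Control libraries were not used here. In the ranked series lists 4 columns of values without a sample label were not used.

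Summits were placed against Ensembl annotation 115 and the RefSeq sequence of WBcel235, which also supplied the printed sequences. Product names came from RefSeq. A replicate's value is the highest signal of its ranked peaks that overlap at least 50% of the shorter peak. Eligible positions are all bases that meet the position rule. Wilson and exact Poisson intervals are at 95%. The rule was checked on simulated peaks against a direct search. Python 3.11.15, numpy 2.4.6, pandas 2.3.3, scipy 1.17.1 and matplotlib 3.10.9 were used. Members, lists and motifs were chosen with earlier results of these data known. Named genes were those of the 20 strongest peaks in both own lists, up to 4 of each list (all where there were 5 or fewer), sex-determination genes, the window edges and the 3 largest replicate contrasts. The genes F44E5.4, F44E5.5 and Y22D7AL.10, and those of the peaks outside the thresholded lists, were named after their values were seen. Genes that share a peak with a named gene, or lie between it and the summit, were named for their position. Alternatives changed the list, window, 5′ ends, overlap and small RNA distance.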

Additional observations from a re-analysis of the deposited data

Results flagged for a closer look

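Ranked peaks that meet the position rule lay outside every thresholded list although both replicates held them and their IDR passed the threshold of the conservative list. The peak 346 bp upstream of Y80D4G.2 had a signal value of 655, above that of every promoter peak described, with 353 in replicate 1 and 305 in replicate 2. The peak 863 bp upstream of clec-9 had 364, with 254 and 122, and that 827 bp upstream of Y62E10A.3 had 287, with 169 and 129. They are among the 11393 ranked peaks that meet the rule outside every thresholded list, and were noted because none of those lists holds them at this signal value. Why the thresholded lists lack them was not tested.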

How the results depend on the processing

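Of 86 values recomputed for the main results, 62 kept within their interval or within 1.5 times the main count and 24 did not. With each replicate's own list in place of the conservative list, the number of peaks ranged from 141 to 153, the divergent share from 37.3% to 39.7%, the median signal value of divergent peaks from 67.1 to 69.1 and of one-sided peaks from 65.5 to 70.9 (each on that list's own scale), the median distance from 211 to 219 bp, and the genes with a peak from 195 to 214. In the stronger part of the conservative list there were 187 peaks at 275 genes, with medians of 117 in divergent and 121 in one-sided promoters, and 43.9% were in both own lists. With a window of 500 bp the divergent share was 27.8% and the median distance 184 bp. With 2000 bp they were 40.1% and 292 bp. When facing genes at any distance counted as divergent, the share was 64.1%, so this share depends on the definition. Among the peaks in both own lists, an alternative chosen after seeing the data, there were 83 peaks at 124 genes, with a divergent share of 41.0% and medians of 166 and 164. The order of the class medians thus changed between lists, while in each own list and in the peaks of both, all with the window of 1000 bp, the divergent share stayed above the 10.6% of eligible positions for that window. The second list, merged peaks, outermost 5′ ends, other small RNA distances and the removal of repeated words or noncoding genes gave values within the intervals. Gene list counts changed by over 1.5 times, or between 0 and another count, in 60 of 132 comparisons, and with 50 bp on each side of the summit, which holds fewer letters, 8 of 11 motif shares left their interval. No paired analysis was possible because there is only 1 group. Sequencing depth is unknown, so the lack of a peak is not shown to be a lack of binding.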

Other observations

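Words seen in the strongest promoter sequences when these were read were counted afterwards in all peaks, with no test. In all 7 words were counted, in either orientation, and 2 were picked for a fuller account because the ratio of their shares to those of ranked peaks was highest, so the sizes of these differences are inflated by that choice. GGCGGAGT, within 100 bp of the summit, occurred at 17 of 323 promoter peaks (5.26%, 3.31 to 8.27), against 0.930% (0.770 to 1.12) of ranked peaks outside every thresholded list that meet the rule, 0.864% of other conservative peaks, 0.658% of conservative peaks at small RNA genes and 1.23% of all coding promoters. Without the 8 peaks whose sequences are printed it was at 14 of 315 (4.44%, 2.67 to 7.32). In peaks found in both own lists it was at 10 of 83 (6.68 to 20.8%), or at 7 of 75 (9.33%) without the printed ones, and in the rest at 7 of 240 (2.92%, 1.42 to 5.90). At 45% GC or more it was at 5.92% (3.25 to 10.5) of peaks and 2.24% (1.61 to 3.11) of the ranked peaks. This comparison keeps printed peaks in which the word was first read and was not made without them, so a difference at like GC content is not shown.

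GTGTGCG occurred at 43 of the 323 peaks (13.3%), 39 of 315 without the printed ones (12.4%, 9.19 to 16.5), 21.7% (14.2 to 31.7) of those in both own lists, 2.76% (2.48 to 3.08) of the ranked peaks, 5.62% of other conservative peaks and 1.68% of all coding promoters. It was as frequent in divergent promoters (14.5%) as in one-sided ones (12.7%), by overlapping intervals. At 45% GC or more the shares were 14.2% (9.73 to 20.3) of peaks and 5.27% (4.25 to 6.51) of ranked peaks. This comparison too keeps printed peaks that hold the word and was not made without them. The other 5 words were also more frequent in promoter peaks than in ranked peaks, at 10.8% against 3.63% for GGCGGAG and 7.12% against 1.53% for GCGGAGT, both of which are parts of GGCGGAGT, and at 4.95% against 2.47% for ACACTTG, 10.8% against 7.10% for ACTTGC and 9.91% against 2.95% for TGCGCA. Promoter peaks were richer in G and C than the ranked peaks (median 45.3% against 36.8%), and for the 5 other words its part was not tested. Which factor, if any, reads any of these words was not tested.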
